A study of Mus musculus with 8 samples.

Results

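The genes described are 34 mouse genes for endoplasmic reticulum (ER) chaperones and heat shock proteins, chosen by name from a list of ER folding and ER-associated degradation (ERAD) genes, unfolded protein response (UPR) sensors and cytosolic and mitochondrial heat shock proteins. All 34 were found among the 55357 genes of the count table. After a filter on low counts 33 of the 34 were among the 14514 genes tested, and Hspa1a was not. They were measured by polyA RNA sequencing in bone marrow-derived macrophages (BMDM) of wild-type C57BL/6J mice, grown from femur and tibia marrow for 5–6 days with 10 ng/ml macrophage colony-stimulating factor. In 4 libraries, called So(d18:1), the cells had received 2 µM sphingosine dissolved in methanol for 6 h, and in 4 libraries, called Control, methanol alone for 6 h. Sphingosine d18:1 is the long-chain amino alcohol at the base of most sphingolipids. The labels name no inflammatory stimulus, although the study's text speaks of one for this experiment, so whether the cells were otherwise stimulated is not settled here. The study calls the 4 samples of a group biologically independent, whereas the labels do not tie libraries to animals, and p-values measure the spread between these libraries.

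Secreted and membrane proteins are folded in the ER by the HSP70-type chaperone BiP, encoded by Hspa5, the HSP90-type chaperone GRP94, the lectin chaperones calnexin and calreticulin, and protein disulfide isomerases. When unfolded proteins build up, the sensors IRE1 (Ern1), ATF6 and PERK start the UPR, in which spliced XBP1 and cleaved ATF6 bind elements in the promoters of ER chaperone genes. In the cytosol and mitochondria, heat shock factors such as HSF1 bind heat shock elements and drive HSP70, HSP90 and HSP60 genes when proteins are damaged. Macrophages are secretory and phagocytic cells.

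Of the 33 members tested, Hspa5 and Canx fell after So(d18:1) and none rose, at a Benjamini-Hochberg adjusted p under 0.05 in edgeR's quasi-likelihood test. Both changes were small, to 0.849 times the Control level for Hspa5 and 0.901 times for Canx. Over all genes tested 8.94% were called, 5.07% lower and 3.87% higher. No member passed the study's own limit of an unadjusted p under 0.05 with a fold change of at least 1.5, which 3.89% of all genes passed. Fewer cells carrying a transcript and less of it per cell cannot be told apart in these bulk libraries.

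Promoter sequences of the members were searched for exact matches to the letters of UPR elements, so near matches are not counted. The table of RefSeq promoters (GRCm38.p6, 250 bases before to 50 bases after each transcription start) held 27 of the 34 members, with 32 promoters. It held none for Atf6, Hyou1, Hsp90aa1, Hsp90ab1, Hspa8, Hsf1 and Manf. The 2 genes that fell are shown by the 160 bases in front of the RefSeq start, 5′ to 3′ on the gene's own strand, with the ER stress element in capitals. The Hspa5 stretch is chr2:34771930-34772089 on the plus strand and the Canx stretch is chr11:50325674-50325833 on the minus strand. The GENCODE gene model of Hspa5 begins within its stretch.

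Hspa5: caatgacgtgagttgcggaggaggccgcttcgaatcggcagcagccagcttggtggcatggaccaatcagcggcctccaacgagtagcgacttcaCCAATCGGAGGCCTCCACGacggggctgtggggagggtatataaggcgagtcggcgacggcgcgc
Canx: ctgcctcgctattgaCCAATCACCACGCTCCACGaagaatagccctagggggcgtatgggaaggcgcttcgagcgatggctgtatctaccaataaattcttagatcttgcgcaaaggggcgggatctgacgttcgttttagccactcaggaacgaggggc

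The ER stress element, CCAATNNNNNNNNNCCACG, is the site at which ATF6 acts together with the CCAAT-binding factor NF-Y. Searched on both strands, it was in the promoters of 8 of the 27 member genes with a promoter, and in 37 of all 27025 genes of the table, or 0.137%. Of the ER folding members 7 of 13 held it, and so did Syvn1. The sites of the other 6 are shown to let the fixed letters, in capitals, be compared across genes, each read in the direction in which the element is written. Hsp90b1 held 2 sites.

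Calr: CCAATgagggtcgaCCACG
Hsp90b1: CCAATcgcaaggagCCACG
Hsp90b1: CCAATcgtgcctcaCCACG
Pdia6: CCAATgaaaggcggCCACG
Dnajc3: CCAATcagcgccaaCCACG
Creld2: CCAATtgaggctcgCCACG
Syvn1: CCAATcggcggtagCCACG

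The sites of Calr and Creld2 and the second of Hsp90b1 lay on the strand opposite to the gene. The second form of the element, ATTGGNCCACG, was in the promoters of Dnajb11 and Herpud1 and in 12 genes of the table, or 0.0444%. The XBP1 and ATF6 site TGACGTGG was in no member promoter and in 193 genes of the table, or 0.714%. A match to these letters is a description of the sequence and not a measured binding site.

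The ER folding group comprised 15 genes, and all 15 were tested. Every one had a lower estimate after So(d18:1), between -0.24 and -0.018 on the log2 scale, whereas 49.1% of all genes tested had an estimate below 0. The median log2 fold change of the 15 was -0.12, beside 0.004 for all genes tested. Hspa5 and Canx were called, and 6 of the 15 had an unadjusted p under 0.05, all of them lower, beside 11.9% of all genes that were lower at that level. The 15 are not independent of each other, since they shared their order across libraries.

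Hspa5 (ENSMUSG00000026864, chr2:34771970-34777547, plus strand) encodes BiP, the main ER HSP70 and the classical reporter of ER stress. Expressed as CPM, the count relative to the scaled total of its library, the level was 433, 440, 533 and 484 in Control replicates 1 to 4 and 372, 385, 442 and 406 in So(d18:1) replicates 1 to 4. The groups overlapped, because So(d18:1) replicate 3 lay above Control replicates 1 and 2. The means were 473 ± 46.4 and 401 ± 30.5 CPM (SD, n = 4 each). The log2 fold change was -0.24 with a standard error (SE) of 0.068 and a 95% interval from -0.38 to -0.089 (edgeR's quasi-likelihood test, adjusted p = 0.0470). The adjusted p was 0.0688 without Control replicate 3, 0.111 without Control replicate 4, 0.102 without So(d18:1) replicate 1, 0.126 without So(d18:1) replicate 2 and 0.141 without So(d18:1) replicate 4, and the estimate stayed below 0 in each of these edgeR fits.

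Canx (ENSMUSG00000020368, chr11:50293961-50325673, minus strand) encodes calnexin, a membrane-bound lectin chaperone that holds glycoproteins during folding. Its levels were 557, 563, 585 and 577 CPM in Control and 501, 506, 515 and 536 CPM in So(d18:1). Every So(d18:1) library lay below every Control library, which was so in this direction for 7.87% of all genes tested. The means were 571 ± 12.7 and 514 ± 15.5 CPM (SD, n = 4 each), with a log2 fold change of -0.15, an SE of 0.041 and a 95% interval from -0.23 to -0.065 (edgeR's quasi-likelihood test, adjusted p = 0.0248). The edgeR adjusted p was 0.0647 without Control replicate 3, 0.0746 without Control replicate 4, 0.0740 without So(d18:1) replicate 1, 0.0800 without So(d18:1) replicate 2 and 0.0550 without So(d18:1) replicate 3. Calr, the soluble partner of calnexin, was at 511 to 631 CPM in Control and 491 to 524 CPM in So(d18:1), with a log2 fold change of -0.12 that did not pass the test.

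Hsp90b1 (ENSMUSG00000020048, chr10:86690209-86705509, minus strand) encodes GRP94, the HSP90 of the ER and a chaperone of Toll-like receptors and integrins. It was at 420, 435, 497 and 459 CPM in Control and at 392, 403, 427 and 419 CPM in So(d18:1). Only So(d18:1) replicate 3 reached into the range of Control. The log2 fold change was -0.14 (SE 0.050, 95% interval from -0.25 to -0.039, edgeR's quasi-likelihood test, adjusted p = 0.0805). It was called with no filter on low counts (edgeR adjusted p = 0.0396) and without Control replicate 1 (edgeR adjusted p = 0.0480). The exons of Hsp90b1 overlap those of 3 other annotated genes, and reads there could be counted for either.

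The co-chaperones and folding enzymes around BiP had estimates of the same sign, and none of them was called by edgeR with TMM and filterByExpr. With no filter on low counts Hyou1 and Pdia6 were called (edgeR adjusted p = 0.00459 and 0.0230), and so they were without Control replicate 2 (edgeR adjusted p = 0.0206 and 0.0437). Hyou1, the ER HSP110 that exchanges nucleotide on BiP, had a log2 fold change of -0.20, and its levels were 78.4 to 107 CPM in Control and 72.8 to 84.1 CPM in So(d18:1). Manf, a secreted ER stress protein that binds BiP, had -0.19, and Sdf2l1, part of a BiP and DNAJB11 complex, -0.13. Among the J-domain proteins that deliver substrates to BiP, Dnajb11 had -0.10, Dnajb9 -0.024 and Dnajc3 -0.018. The disulfide isomerases had estimates of -0.17 for Pdia6, -0.12 for Pdia4, -0.057 for Pdia3 and -0.044 for P4hb. Creld2, another ER stress-induced protein, had -0.034. Hyou1, Pdia4, Calr and Hsp90b1 were the 4 that had an unadjusted p under 0.05 beside the called genes. The 95% intervals of the 13 uncalled ER folding genes reached no lower than -0.40 and no higher than 0.15.

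**Figure D1:**
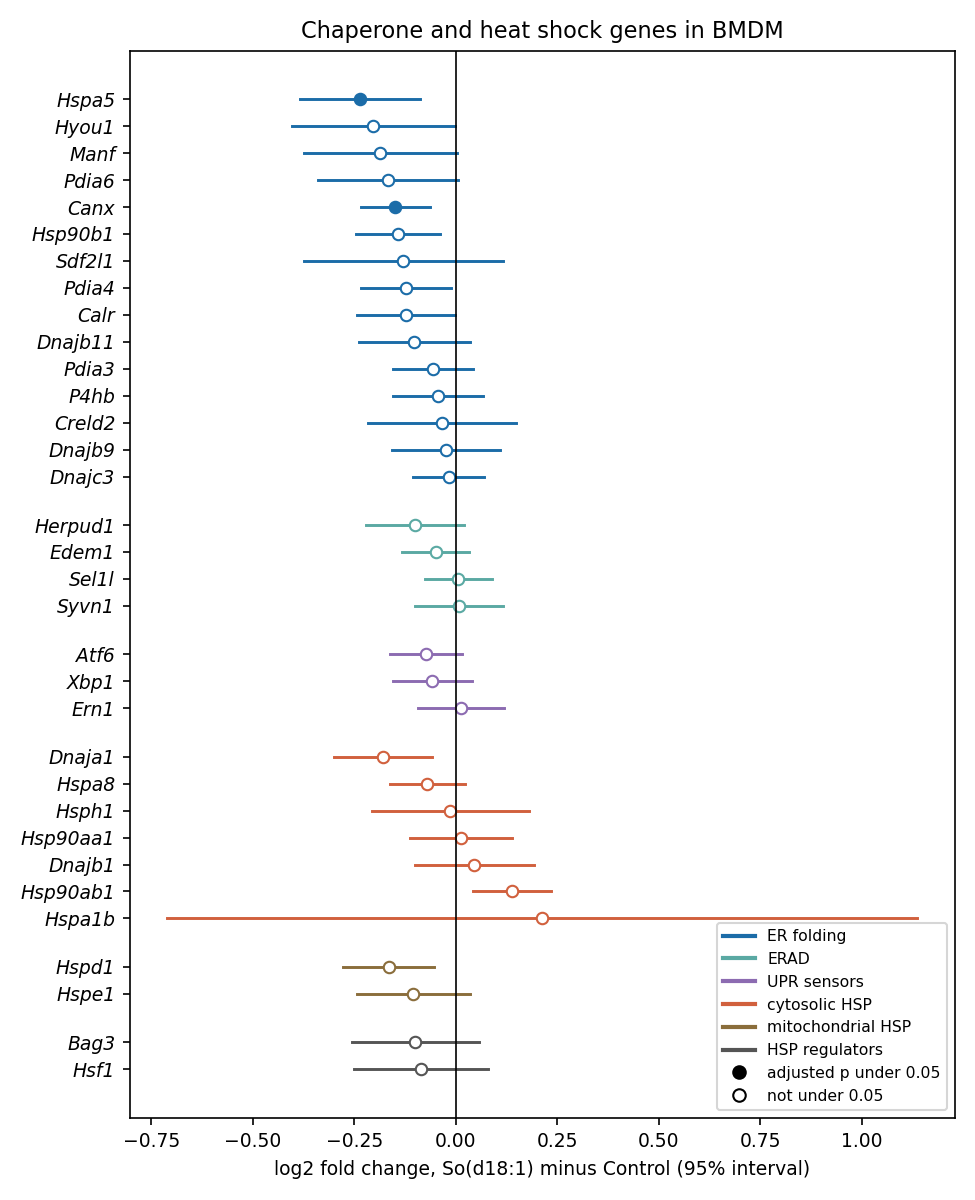
Log2 fold change, So(d18:1) minus Control, of the 33 members tested (horizontal axis, points with 95% intervals), one row per gene and coloured by group. Filled points are the 2 genes with an adjusted p under 0.05, Hspa5 and Canx. All 15 ER folding estimates lie left of 0, between -0.24 and -0.018, and those of the cytosolic heat shock genes lie on both sides.

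The ER folding genes moved together from library to library. Relative to each gene's Control mean, the median of the 15 on the log2 scale was -0.095, -0.10, 0.17 and 0.045 in Control replicates 1 to 4 and -0.18, -0.16, -0.083 and -0.081 in So(d18:1) replicates 1 to 4. Control replicate 3 was the highest Control library for 13 of the 15 genes, whereas over all genes tested it was the highest for 28.5%. Control replicates 1 and 2 were the lowest for 7 and 8 of the 15, and So(d18:1) replicate 1 was the lowest of its group for 12. The Control libraries therefore spread over a wider range than the difference between the group medians. Without Control replicate 3, 12 of the 15 estimates were below 0 and their median was -0.055. Without Control replicate 2 all 15 were below 0 and the median was -0.16.

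**Figure D2:**
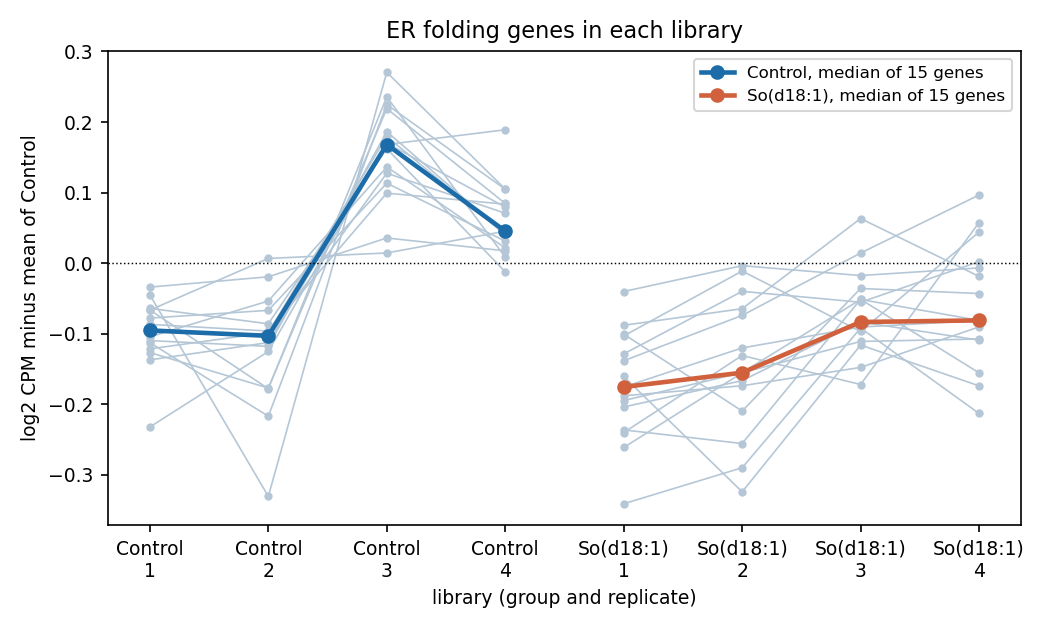
Level of each of the 15 ER folding genes in each library, as log2 CPM minus the gene's mean over the 4 Control libraries (vertical axis), by group and replicate (horizontal axis). Thin lines join the values of one gene within a group and thick lines join the medians of the 15, which run from -0.10 to 0.17 in Control and from -0.18 to -0.081 in So(d18:1), with replicates in no order.

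Summed over the 15 genes, ER folding transcripts came to 3420, 3439, 3999 and 3759 CPM in Control and 3213, 3319, 3426 and 3470 CPM in So(d18:1). The means were 3654 ± 277 and 3357 ± 115 CPM (SD, n = 4 each), a ratio of 0.919, and the groups overlapped. The labelled cell type expressed its markers, with Control means of 20723 CPM for Lyz2, 6234 CPM for Csf1r and 2213 CPM for Adgre1. Of the 10 macrophage markers 8 had estimates below 0, with a median log2 fold change of -0.14, Cd68 and Mertk fell and Itgam rose. They summed to 31423 to 33812 CPM in Control and 27253 to 32179 CPM in So(d18:1), a ratio of means of 0.923. Neutrophil granule transcripts had the same order as the ER folding sum in the upper Control libraries: their 10 markers summed to 1802, 1757, 2388 and 2146 CPM in Control, with replicates 3 and 4 again the highest, and to 1646, 1494, 1530 and 1651 CPM in So(d18:1). Within So(d18:1) the orders differed, since replicate 1 was the lowest for ER folding and close to the highest for neutrophil markers. Of these 10, 9 were lower and 1 higher, 4 fell and Mmp8 rose, the most abundant was Ngp with means of 698 CPM for Control and 523 CPM for So(d18:1), and Ly6g, the defining surface marker, averaged 2.17 CPM in Control and 1.38 CPM after sphingosine. B and plasma cell markers, a lineage rich in ER chaperones, summed to 16.8 to 20.6 CPM in Control and 13.4 to 17.2 CPM in So(d18:1). All 5 of the 6 that were tested had estimates below 0, Jchain fell, and the plasma cell marker Mzb1 was at 0.0211 and 0.0140 CPM. The part of these cells, and of the shift in macrophage markers, in the ER folding result was not tested. Of the T cell markers only Cd4, at 22.9 CPM in Control, passed the filter and it fell, with Cd3e at or near 0 in every library. Dendritic cell, erythroid and stromal markers summed to at most 8.97, 1.20 and 10.4 CPM in any library. None of the 5 dendritic cell and 5 stromal markers tested was called, and no erythroid marker passed the filter.

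**Figure D3:**
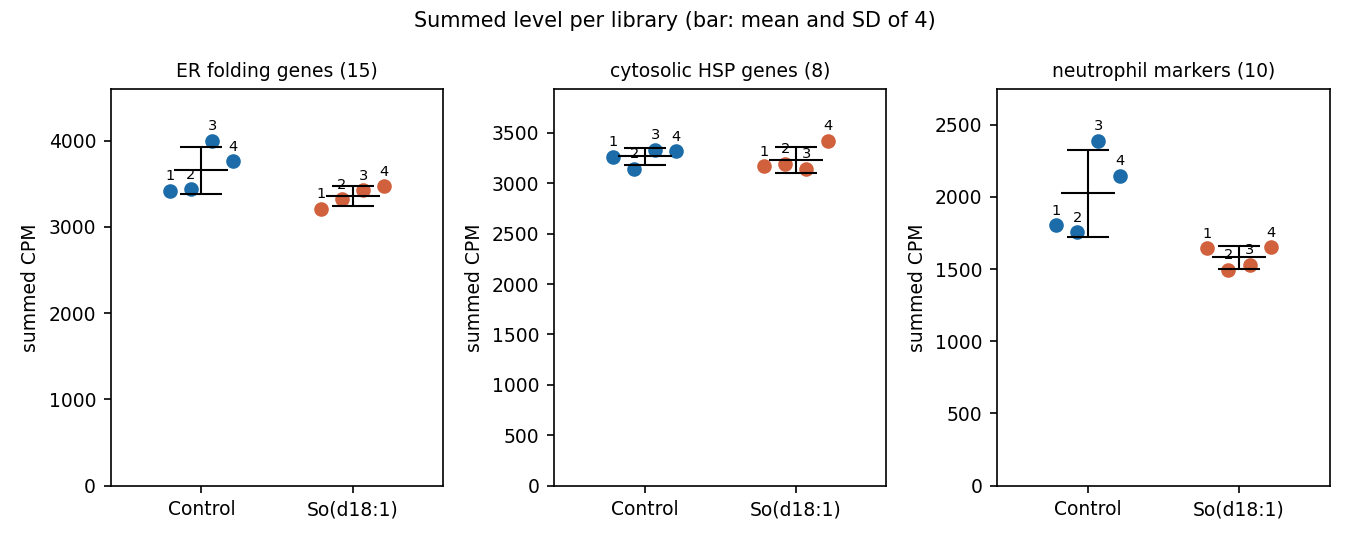
Summed CPM per library (vertical axes from 0) of the 15 ER folding genes, the 8 cytosolic heat shock genes and the 10 neutrophil markers in Control and So(d18:1). Points are libraries numbered by replicate and bars are the mean and SD of 4. Control replicate 3 is the highest Control library in each panel, at 3999 CPM for ER folding and 2388 CPM for neutrophil markers.

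The ERAD group comprised 4 genes that return misfolded proteins to the cytosol for degradation. Their median log2 fold change was -0.022, with 2 estimates below and 2 above 0. Herpud1, a UPR-induced scaffold of the retrotranslocation complex, had -0.10, and Edem1, a lectin that picks out mannose-trimmed glycoproteins, -0.050. The ubiquitin ligase Syvn1 and its partner Sel1l had 0.0079 and 0.0063. None of the 4 was called and none had an unadjusted p under 0.05. Sel1l was narrow in Control, at 225 to 227 CPM, and its 95% interval ran from -0.076 to 0.088.

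None of the 3 UPR sensors was called or had an unadjusted p under 0.05. Xbp1 (ENSMUSG00000020484, chr11:5520659-5525893, plus strand), the transcription factor whose mRNA IRE1 splices, was at 140, 137, 153 and 148 CPM in Control and 131, 138, 142 and 144 CPM in So(d18:1). Its groups overlapped, and the estimate on the log2 scale was -0.058 (SE 0.047, 95% interval from -0.16 to 0.039, edgeR adjusted p = 0.498). Gene counts do not tell spliced from unspliced Xbp1.

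Ern1 (ENSMUSG00000020715, chr11:106394650-106487852, minus strand), which encodes IRE1α, was at 226, 213, 191 and 204 CPM in Control and 223, 214, 202 and 202 CPM in So(d18:1). The ranges nearly coincided, and the log2 fold change was 0.013 (SE 0.051, 95% interval from -0.093 to 0.12, edgeR adjusted p = 0.915). Control replicate 3, the highest Control library for most ER folding genes, was the lowest for Ern1. Atf6 (ENSMUSG00000026663, chr1:170704674-170867771, minus strand) was at 135, 136, 128 and 131 CPM in Control and 125, 122, 129 and 128 CPM in So(d18:1). Its groups overlapped at So(d18:1) replicate 3, and the log2 fold change was -0.074 (SE 0.042, 95% interval from -0.16 to 0.014, edgeR adjusted p = 0.310).

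The ER folding genes with and without an exact match to the ER stress element were set side by side. The 7 with it, Hspa5 and Canx included, had log2 fold changes between -0.24 and -0.018, with a median of -0.14. The 6 without it had values between -0.13 and -0.024, with a median of -0.079. Near matches were not counted, and Dnajb11, among these 6, held the second form of the element. Hyou1 and Manf, with log2 fold changes of -0.20 and -0.19, had no promoter to search and are in neither group. Of the 29 genes outside the list that held the element, 8 were tested, with 5 estimates below and 3 above 0 and a median of -0.084. Adcy3 and Hnrnpa3 fell among these 8. The ranges of the groups with and without an exact match overlapped, and no test was run on them.

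The cytosolic heat shock group comprised 8 genes, of which 7 were tested. They were split in sign, with 4 estimates above and 3 below 0 and a median log2 fold change of 0.014, and none was called by edgeR's quasi-likelihood test with TMM and filterByExpr. At an unadjusted p under 0.05 Hsp90ab1 was higher and Dnaja1 lower, where 23.4% of all genes passed that level in either direction and 11.4% were higher. Hspa1a, Hspa1b, Hsp90aa1, Hspa8 and Dnaja1 share over 10% of the 50-base words of their transcripts with other annotated genes, so that their counts depend on how reads matching several places were treated.

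Hspa8 (ENSMUSG00000015656, chr9:40800984-40810087, plus strand) encodes HSC70, the constitutive HSP70 of the cytosol, and was the most abundant member per kilobase of merged exons. It was at 2173, 2070, 2248 and 2197 CPM in Control and 2043, 2005, 2022 and 2206 CPM in So(d18:1). So(d18:1) replicate 4 lay among the Control libraries while the other So(d18:1) libraries lay below them. The log2 fold change was -0.070 (SE 0.044, 95% interval from -0.16 to 0.023, edgeR adjusted p = 0.370), and 39.4% of its words are shared with other genes.

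The inducible HSP70 genes, the classical readout of a heat shock response, were near the limit of detection in both groups. Hspa1a (ENSMUSG00000091971, chr17:34969190-34972156, minus strand) had 8, 9, 9 and 5 counts in Control and 7, 9, 8 and 9 in So(d18:1), too few to pass the filter. Hspa1b (ENSMUSG00000090877, chr17:34956436-34959238, minus strand) had 6, 9, 30 and 16 counts in Control and 23, 9, 13 and 18 in So(d18:1). Its levels of 0.643 ± 0.445 and 0.768 ± 0.372 CPM (SD, n = 4 each) overlapped widely, and the log2 fold change of 0.21 had an SE of 0.44 and a 95% interval from -0.71 to 1.14 (edgeR adjusted p = 0.823). At this depth the interval reached past a 2-fold rise. The 2 genes share 58.8% of the words of Hspa1a with each other, and their summed counts were 14, 18, 39 and 21 in Control and 30, 18, 21 and 27 in So(d18:1), which again overlap.

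Hsp90ab1, the constitutive cytosolic HSP90, was at 749 to 815 CPM in Control and 824 to 917 CPM in So(d18:1). No libraries overlapped, as for 7.14% of all genes in this direction, and the log2 fold change of 0.14 had an SE of 0.046 (edgeR's quasi-likelihood test, adjusted p = 0.0680). The Wald test of DESeq2 called it (adjusted p = 0.0448), as did edgeR with no filter on low counts (adjusted p = 0.0271) and without So(d18:1) replicate 3 (adjusted p = 0.0413). Its inducible paralog Hsp90aa1 (ENSMUSG00000021270, chr12:110690605-110702728, minus strand) was at 117, 121, 147 and 132 CPM in Control and 127, 128, 136 and 131 CPM in So(d18:1). The So(d18:1) libraries lay inside the range of Control, and the log2 fold change was 0.014 (SE 0.060, 95% interval from -0.11 to 0.14, edgeR adjusted p = 0.924). It shares 47.5% of its words, mostly with the pseudogene Gm12346.

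Among the HSP70 partners, Dnaja1, a J-domain co-chaperone of HSC70 that shares 20.6% of its words, was at 92.6 to 112 CPM in Control and 85.8 to 92.5 CPM in So(d18:1). The groups did not overlap, though their nearest libraries were almost level, and the log2 fold change was -0.18 (edgeR's quasi-likelihood test, adjusted p = 0.0566). It was called with upper quartile scaling, with no filter or a filter of 10 counts, and without Control replicate 1 or Control replicate 2, at edgeR adjusted p between 0.0139 and 0.0494. Dnajb1, the stress-induced J-domain partner of HSP70, had 0.046 and Hsph1, a cytosolic HSP110, -0.014. Summed CPM over the 8 cytosolic genes were 3146 to 3334 in Control and 3145 to 3421 in So(d18:1).

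The 2 mitochondrial members, which together form the HSP60 and HSP10 folding chamber of the matrix, both had estimates below 0. Hspd1 (ENSMUSG00000025980, chr1:55077835-55088243, minus strand) was at 61.9, 57.7, 66.3 and 63.1 CPM in Control and 54.1, 54.4, 54.4 and 58.9 CPM in So(d18:1). The groups met only where So(d18:1) replicate 4 exceeded Control replicate 2, and the log2 fold change was -0.17 (SE 0.053, 95% interval from -0.28 to -0.054, edgeR adjusted p = 0.0580). It was called with upper quartile scaling, a filter of 10 counts, and without Control replicate 2 or So(d18:1) replicate 4, at edgeR adjusted p between 0.0219 and 0.0470. Hspe1 had -0.10, with 28.3 to 33.3 CPM in Control and 26.8 to 31.1 CPM in So(d18:1). Both share words with pseudogenes, 42.1% for Hspd1 and 22.8% for Hspe1.

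Hspd1 and Hspe1 are read in opposite directions from a common promoter, and their exons overlap. The heat shock element, searched as GAANNTTCNNGAA and as TTCNNGAANNTTC, which is its reverse complement, was in the promoters of Hspd1, Hspe1 and Hsph1 and in 179 of all 27025 genes, or 0.662%. The common stretch is shown because a single run of it, 18 bases long and in capitals, gave the matches of both genes. Of the 2 RefSeq promoters of Hspd1 the one with its start at 55087932 held it, and seen from the start at 55088243 the run lies inside the gene. The run lies at chr1:55088059-55088076. The stretch shown is chr1:55088044-55088091, printed on the plus strand, 5′ to 3′.

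Hspe1 and Hspd1: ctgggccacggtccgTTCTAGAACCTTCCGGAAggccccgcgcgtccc

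Neither of the 2 regulators was called or had an unadjusted p under 0.05. Hsf1 (ENSMUSG00000022556, chr15:76477422-76501913, plus strand), the heat shock transcription factor, was at 23.8, 19.9, 25.0 and 21.5 CPM in Control and 23.2, 20.3, 21.2 and 20.4 CPM in So(d18:1). The ranges overlapped, and the estimate on the log2 scale was -0.086 (SE 0.079, 95% interval from -0.25 to 0.079, edgeR adjusted p = 0.561). Bag3, an HSF1 target that links HSP70 to selective autophagy, had -0.10.

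Taking all 33 tested members, 26 estimates were below and 7 above 0, with a median log2 fold change of -0.074. The groups did not overlap for 3 of them, Canx, Dnaja1 and Hsp90ab1, against 15% of all genes tested. Compared per kilobase of merged exons in Control, Hspa8 led with a level of 505 CPM per kb, followed by Hsp90ab1 at 265, Calr at 193, P4hb at 169, Pdia3 at 143 and Canx at 122 CPM per kb. Hsp90b1 and Hspa5, at 112 CPM per kb each, did not differ beyond their SDs of 8.25 and 11.0. At the low end were Hsf1 at 3.17, Hspa1b at 0.229 and Hspa1a at 0.112 CPM per kb. Together the members held 0.779% to 0.847% of all counts in Control and 0.760% to 0.798% in So(d18:1).

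**Figure D4:**
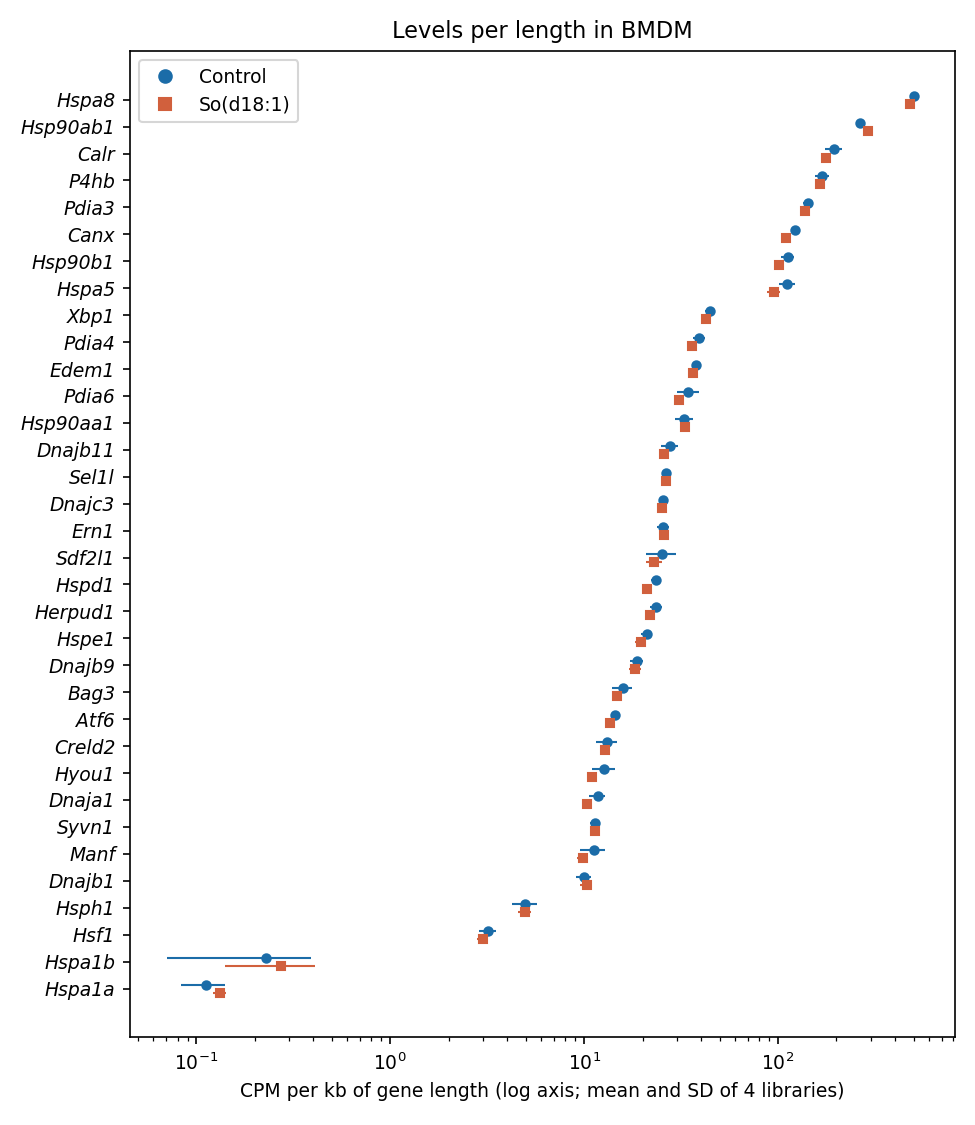
Levels of the 34 members in CPM per kb of merged exons (horizontal log axis), mean and SD of 4 libraries, in Control (circles) and So(d18:1) (squares). The levels run from 0.112 for Hspa1a to 505 for Hspa8 in Control, and the 2 groups lie close together for every gene beside this span.

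Other genes of the same pathways were taken from 10 further lists. The table listed 209 such genes, of which 201 were tested, with 112 estimates above and 89 below 0, and 12 were called, 9 higher and 3 lower. That share lies below the 8.94% called over all genes.

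Among the other ER folding and redox genes, 33 were tested, 23 had estimates above and 10 below 0, the median log2 fold change was 0.049, and 3 rose. Cnpy3, which with GRP94 folds Toll-like receptors, was at 110, 105, 129 and 127 CPM in Control and 161, 149, 153 and 171 CPM in So(d18:1). All So(d18:1) libraries lay above all Control libraries, and the log2 fold change was 0.43 (SE 0.065, edgeR adjusted p = 0.000592). Qsox1, a thiol oxidase, was at 31.4 to 39.2 CPM in Control and 41.6 to 42.5 CPM in So(d18:1) and rose, with a log2 fold change of 0.26 (edgeR adjusted p = 0.0110). Txndc12, an ER thioredoxin, had 0.22 (edgeR adjusted p = 0.0207). The call of Txndc12 was lost in 4 of 16 alternatives, without Control replicate 1 or 4 or So(d18:1) replicate 1 or 4, with an edgeR adjusted p of at most 0.0857.

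Translocation and glycosylation genes numbered 33, and Ddost, a subunit of the oligosaccharyltransferase, alone rose, by 0.14 on the log2 scale (edgeR adjusted p = 0.0434). No gene of the other 30 ERAD genes and of the 8 genes of the PERK, ATF4 and CHOP arm was called by edgeR, DESeq2 or limma-voom. Of the 30, 19 had estimates above and 11 below 0, and 6 had an unadjusted p under 0.05 in edgeR, 5 higher and 1 lower. Of the 8, 5 had estimates above and 3 below 0, with a median log2 fold change of 0.038. Only 1 of the 8 had an unadjusted p under 0.05 in edgeR, and this was Ddit3. Ddit3 encodes CHOP, the transcription factor of prolonged ER stress, and was named here after its values were seen. Its mean level was 9.55 CPM for Control against 7.72 CPM for So(d18:1), with a log2 fold change of -0.31 (edgeR adjusted p = 0.0708).

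In a list of 13 genes of ATF6 processing and of ER stress and cell death, Bbc3, a BH3-only protein, and Tmbim6, an ER membrane protein, rose by 0.23 (edgeR adjusted p = 0.0186) and 0.14 (edgeR adjusted p = 0.0480). The call of Bbc3 was lost without So(d18:1) replicate 1, at an edgeR adjusted p of 0.0623. The call of Tmbim6 held in 6 of 16 alternatives and that of Ddost in 9.

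Of 20 other cytosolic heat shock and J-domain genes 3 were called. Hspa4, a cytosolic HSP110 that exchanges nucleotide on HSC70, fell, from 210, 204, 237 and 228 CPM in Control to 169, 172, 168 and 180 CPM in So(d18:1). The groups were well apart, with a log2 fold change of -0.35 (SE 0.049, edgeR adjusted p = 6.1e-05). Dnajc13, a J-domain protein of endosomes, fell by 0.16 (edgeR adjusted p = 0.0186), and Dnajb12, a J-domain protein of the ER membrane, rose by 0.16 (edgeR adjusted p = 0.0431). The call of Dnajc13 was lost without Control replicate 1 or So(d18:1) replicate 2, at an edgeR adjusted p of at most 0.0777.

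Of 24 co-chaperones Cdc37l1, an HSP90 partner, fell by 0.18 (edgeR adjusted p = 0.0413). Of 9 ubiquitin and stress genes, Ubb, which encodes polyubiquitin, rose by 0.17 (edgeR adjusted p = 0.0105), and it shares 48.1% of its words with other genes. None of the 15 chaperonin and prefoldin genes and none of the 16 other mitochondrial chaperone and protease genes was called by edgeR, DESeq2 or limma-voom with all libraries and no block, while 1 and 4 had an unadjusted p under 0.05 in edgeR. Without Control replicate 2, edgeR called 2 of the 16 mitochondrial genes. The calls of Cnpy3, Qsox1, Hspa4 and Ubb held in all 16 alternatives to the processing, with edgeR adjusted p of at most 0.0463. Those of Dnajb12 and Cdc37l1 held in 9 and 10, and each was lost without any of 6 of the 8 libraries, left out in turn.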

How the data were processed

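PolyA RNA of 8 BMDM libraries, 4 Control and 4 So(d18:1), was sequenced. Adaptors were removed by the authors in Trim Galore 0.6.7, who mapped the reads with HISAT2 2.2.1 on mm10 and assigned them to genes with featureCounts 2.0.1. The values they deposited are raw read counts per Ensembl gene, and the strand and multiple-mapping settings are not given in the sources used here. Totals were 17748397 to 26088609 counts per library. Symbols came from the GENCODE annotation of the same build and matched 52081 of the 55357 identifiers.

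Counts were filtered with filterByExpr (14514 genes), scaled by TMM and tested with edgeR 4.0.16 (R 4.3.3) by quasi-likelihood with robust dispersion and no covariate. The study names edgeR, and these settings were chosen here. P-values were adjusted by Benjamini-Hochberg over all genes tested. SEs were derived from the size of the log2 fold change and its F statistic, and log2 CPM took a prior count of 2. The procedure was tested on simulated data. Alternatives were other scalings, filters and tools (DESeq2 1.42.0, limma 3.58.1), a replicate block and each library left out.

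The members and lists were chosen with earlier results of these data known. Members named in full were those called and Hspa5, Hsp90b1, Xbp1, Ern1, Atf6, Hspa8, Hspa1a, Hspa1b, Hsp90aa1, Hspd1 and Hsf1, with the called genes of the other lists, at most 3 each. One called gene of those lists is counted but not reported here by name.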

Additional observations from a re-analysis of the deposited data

Results flagged for a closer look

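In each group of 4 libraries, each tested member was checked for a library set apart from the other 3, by how much of the group's range lay between that library and its neighbour, against Dixon's 95% limit for 4 values. Of 66 such groups 4 passed, where chance alone gives about 3.3. In Control, Sel1l was highest in replicate 1 (ratio 0.930), at a log2 CPM of 7.83 beside 7.81 in the other 3, a narrow range throughout. Dnajb1 was lowest in Control replicate 2 (ratio 0.835), at 4.80 beside 5.05 to 5.10. In So(d18:1), Edem1 was highest in replicate 3 (ratio 0.838), at 7.91 beside 7.86 to 7.87. Hspd1 was highest in So(d18:1) replicate 4 (ratio 0.943), at 5.88 beside 5.76 to 5.77.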

How the results depend on the processing

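Hspa5 and Canx kept a log2 fold change below 0 and a call under each of the 8 alternatives that used every library (3 scalings, 2 filters, the replicate block, DESeq2 and limma-voom), and lost the call without single libraries as given above. In these 8 alternatives all 15 ER folding estimates were below 0. The number of members called, 2 of 33 with TMM and filterByExpr, was 4 with upper quartile scaling, all lower, 7 with no filter on low counts, 6 lower and 1 higher, 4 with at least 10 counts in every library, all lower, and 3 with the Wald test of DESeq2, 2 lower and 1 higher. With the replicate number of the labels as a block, 8 members were called, 7 lower (Canx, Dnaja1, Hsp90b1, Hspa5, Hspd1, Hyou1 and Pdia6) and 1 higher (Hsp90ab1), and 1 of the other mitochondrial chaperone genes. Over all genes tested, deviations from the group means had correlations of -0.0035, 0.10, 0.033 and 0.0091 between same-numbered libraries of the groups. Between libraries of unlike number they ran from -0.14 to 0.11. The median of the 15 ER folding genes, by contrast, was lower in replicates 1 and 2 than in replicates 3 and 4 of both groups. The labels do not say whether the numbers pair the libraries, and pairing was not tested. The causes of these moves were not tested.

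With each library left out in turn, 0 to 6 members were called, 0 to 6 lower and 0 to 1 higher, with 0 without Control replicate 3 or 4 or So(d18:1) replicate 1 or 2. Members lower at an unadjusted p under 0.05 numbered 5 to 13, and those whose groups did not overlap 3 to 7. Calls over all genes numbered 815 to 1370, 360 to 576 of them higher and 455 to 794 lower, and those among the other lists 6 to 11, with 4 to 9 higher and 1 to 4 lower. Upper quartile scaling left 5 higher calls among the other lists. At a fold limit of 2 in place of 1.5, 121 genes passed, and with no filter and the limit of 1.5, 1212 passed.

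Of 527 fits of single members, 473 kept their direction and their side of the threshold, 24 gained and 10 lost a call, and 20 turned direction. With upper quartile scaling Sel1l was at -0.0059 and Syvn1 at -0.0041 in log2 fold change. With single libraries left out, the log2 fold change ranged from -0.12 to 0.77 for Hspa1b, from -0.029 to 0.082 for Hsp90aa1, from -0.026 to 0.029 for Syvn1, from -0.015 to 0.080 for Dnajb1, from -0.077 to 0.0010 for P4hb, from -0.067 to 0.034 for Dnajb9, from -0.092 to 0.052 for Creld2, from -0.026 to 0.056 for Ern1, from -0.078 to 0.072 for Hsph1 and from -0.0089 to 0.016 for Sel1l. None of these 10 genes was called in any fit.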
